A study of Mus musculus with 6 samples.

Results

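Transcripts of adipocyte regulators and lipid storage genes were measured in cultured fibro-adipogenic progenitors, stromal cells between muscle fibres with the capacity to form fibroblasts or adipocytes. The set was a list of 35 named mouse genes matched by symbol, and all 35 were found among the 41388 genes of the count table. It holds 7 early regulators of fat cell formation, 5 core and late regulators, 17 genes of lipid uptake, droplets, triglyceride turnover and fatty acid synthesis, and 6 genes made up of adipocyte secreted products and Car3. PGE2 libraries came from cells given 500 nM prostaglandin E2 (PGE2) once daily for 2 days, and vehicle libraries from cells given its vehicle. All cells were primary cultures from muscle of wild-type male mice, grown with serum and human FGF, and each group had 3 libraries of polyadenylated RNA. Neither an adipogenic cocktail nor the animals' age is named in the labels, and nothing says whether libraries of a group came from separate mice or cultures. The p-values therefore measure the spread between these libraries, which may be technical.

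Fat cell formation begins when C/EBP-beta and C/EBP-delta, transcription factors induced early, switch on PPAR-gamma and C/EBP-alpha. These core factors then maintain each other and drive late genes for fatty acid uptake, lipid droplets and secreted adipokines. In injured or dystrophic muscle, fibro-adipogenic progenitors are the known source of fat between fibres. Some of the receptors through which PGE2 acts raise cyclic AMP or calcium, though not all raise cyclic AMP. Cyclic AMP is a classical inducer of the gene for C/EBP-beta.

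Promoter windows from RefSeq (GRCm38.p6, 250 bases before to 50 after a gene's start) were present for 24 of the 35 members, with 32 windows in all. The windows of Cebpb, Pparg and Plin1 are shown because they stand for an early regulator, the core regulator and a late droplet gene, of which the first rose and the other two fell in the paired fit described below. Capitals mark the short cyclic AMP response element TGACG or the C/EBP element TTGCNNAA, each searched on both strands. The Cebpb window is chr2:167688665-167688964 on the plus strand, the Pparg window is chr6:115421816-115422115 on the plus strand at the start furthest downstream of its 3, and the Plin1 window is chr7:79732727-79733026 on the minus strand.
Cebpb: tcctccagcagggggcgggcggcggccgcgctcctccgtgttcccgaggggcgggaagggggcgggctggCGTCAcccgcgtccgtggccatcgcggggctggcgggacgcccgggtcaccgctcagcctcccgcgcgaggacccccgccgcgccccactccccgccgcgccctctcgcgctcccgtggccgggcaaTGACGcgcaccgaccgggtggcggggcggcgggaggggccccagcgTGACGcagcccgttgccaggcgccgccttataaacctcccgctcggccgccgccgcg
Pparg: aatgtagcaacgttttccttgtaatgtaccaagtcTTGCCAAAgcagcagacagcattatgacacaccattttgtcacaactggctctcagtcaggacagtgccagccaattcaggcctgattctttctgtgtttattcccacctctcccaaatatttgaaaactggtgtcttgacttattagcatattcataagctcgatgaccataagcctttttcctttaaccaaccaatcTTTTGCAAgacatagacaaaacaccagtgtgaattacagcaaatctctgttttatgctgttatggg
Plin1: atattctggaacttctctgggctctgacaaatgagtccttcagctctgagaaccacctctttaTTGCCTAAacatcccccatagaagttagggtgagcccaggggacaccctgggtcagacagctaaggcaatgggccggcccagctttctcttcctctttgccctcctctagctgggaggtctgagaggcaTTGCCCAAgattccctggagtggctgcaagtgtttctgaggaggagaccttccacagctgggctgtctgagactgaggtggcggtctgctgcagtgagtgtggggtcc
The Cebpb window held 3 short elements, which began 180, 53 and 7 bases before the start, and 1.03% of all 32851 windows held at least 3. The short element occurred in 5 member windows, those of Cebpb, Ebf1, Klf15, Klf4 and Ppargc1a, and in 20.8% of all windows. The C/EBP element began 215 and 16 bases before the Pparg start, and 187 and 58 bases before the Plin1 start. It also occurred in windows of Cidec, Lep and Zfp423, thus in 5 of 32, and in 10.8% of all windows. The Pparg windows not shown did not hold it. Neither the full cyclic AMP element TGACGTCA nor the PPAR response element, AGGTCA repeated after 1 base of any kind, was found in a member window, and these occurred in 1.79% and 0.0396% of all windows. A match is a string of letters and does not show binding. Members with no window in the table were Cebpd, Klf5, Ebf2, Lpl, Fabp4, Fabp5, Gpd1, Dgat1, Dgat2, Scd1 and Car3.

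Totals were 38150216 to 52730962 counts in PGE2 libraries and 21006044 to 42708381 in vehicle libraries, the lowest being vehicle library 2. Levels are given as CPM, counts scaled to a common library size, for libraries 1 to 3 of each group in order. Progenitor identity was checked on Pdgfra, the defining receptor of these cells, which stood at 1126, 1332 and 1406 CPM in PGE2 libraries and at 1122, 1455 and 1269 CPM in vehicle libraries. Among mature adipocyte markers, Lep, which encodes leptin, had 0 counts in every PGE2 library and 1 count in all vehicle libraries together, and Cidec had 0 to 20 counts. Others were detected in every library, with Fabp4 at 26.0 to 46.0, Adipoq at 2.01 to 12.2 and Plin1 at 2.12 to 9.60 CPM. Of 8 macrophage markers, Ptprc and C1qa were at 0 in every library, and Adgre1 and Itgam had at most 5 counts in any. Cd14 stood at 5.68 to 8.51 CPM, and Cd68, Csf1r and Lyz2 were also detected in every library. Deviations from group means correlated between libraries carrying the same number, at 0.621, 0.169 and 0.422 for numbers 1 to 3. PGE2 library 2 correlated more with vehicle library 3 (0.252). The labels name no pairing, so the library number was taken as a block from these same values. A fit with that block, called the paired fit, is given beside the unblocked one, and its calls depend on this choice.

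The late adipocyte genes Car3, Cfd, Cd36 and Adipoq and the commitment factors Zfp423 and Ebf2 fell under PGE2 in the paired fit, and Cebpb, Cebpd and Dgat1 rose. Each of these 9 genes passed an adjusted p of 0.05 in that fit, also with any of the 3 pairs left out and after correction for transcript length. All of these fits used the same pairing by number, so they do not check that choice. A pairing that swaps numbers 2 and 3 was not fitted. The share of all genes that passed all of these fits was not computed. In the unblocked fit Car3 was the member that passed, 1 of 32 tested (3.12%). There 0.342% of all 15186 tested genes passed and 0.132% were lower (edgeR, Benjamini-Hochberg over all genes). Car3 had 4 to 6 counts in each PGE2 library and passed the filter on low counts through the vehicle libraries. This single call is therefore not read against the share of all genes. The paired fit called 17 of 32 members (53.1%), 5 higher and 12 lower, where it called 14.4% of all genes, 6.91% higher and 7.51% lower. DESeq2 called 9 members without the block, 4 higher and 5 lower, where it called 6.14% of all genes, 2.86% higher and 3.27% lower. These were not the same 9 genes, but Cebpb, Cebpd, Dgat1 and Agt, higher, and Car3, Zfp423, Ebf2, Fasn and Acaca, lower. Cfd, Adipoq and Cd36 did not pass there (DESeq2 adjusted p = 0.064, 0.0732 and 0.163). Cidec, Lep and Retn had too few counts to be tested. The groups did not overlap for 4 members that were higher under PGE2 and 9 that were lower, where 13.7% of all tested genes lay higher and 12.2% lower without overlap, 25.9% together. All 3 pairs pointed to higher levels under PGE2 for 7 members and to lower levels for 14, where 52.1% of all tested genes had the same direction in all pairs, 26.6% higher and 25.5% lower. The members' median log2 fold change was -0.17 in the paired fit, against -9.25e-05 over all genes. Since these are whole cultures, fewer cells of a type and less RNA per cell cannot be told apart.

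**Figure D1:**
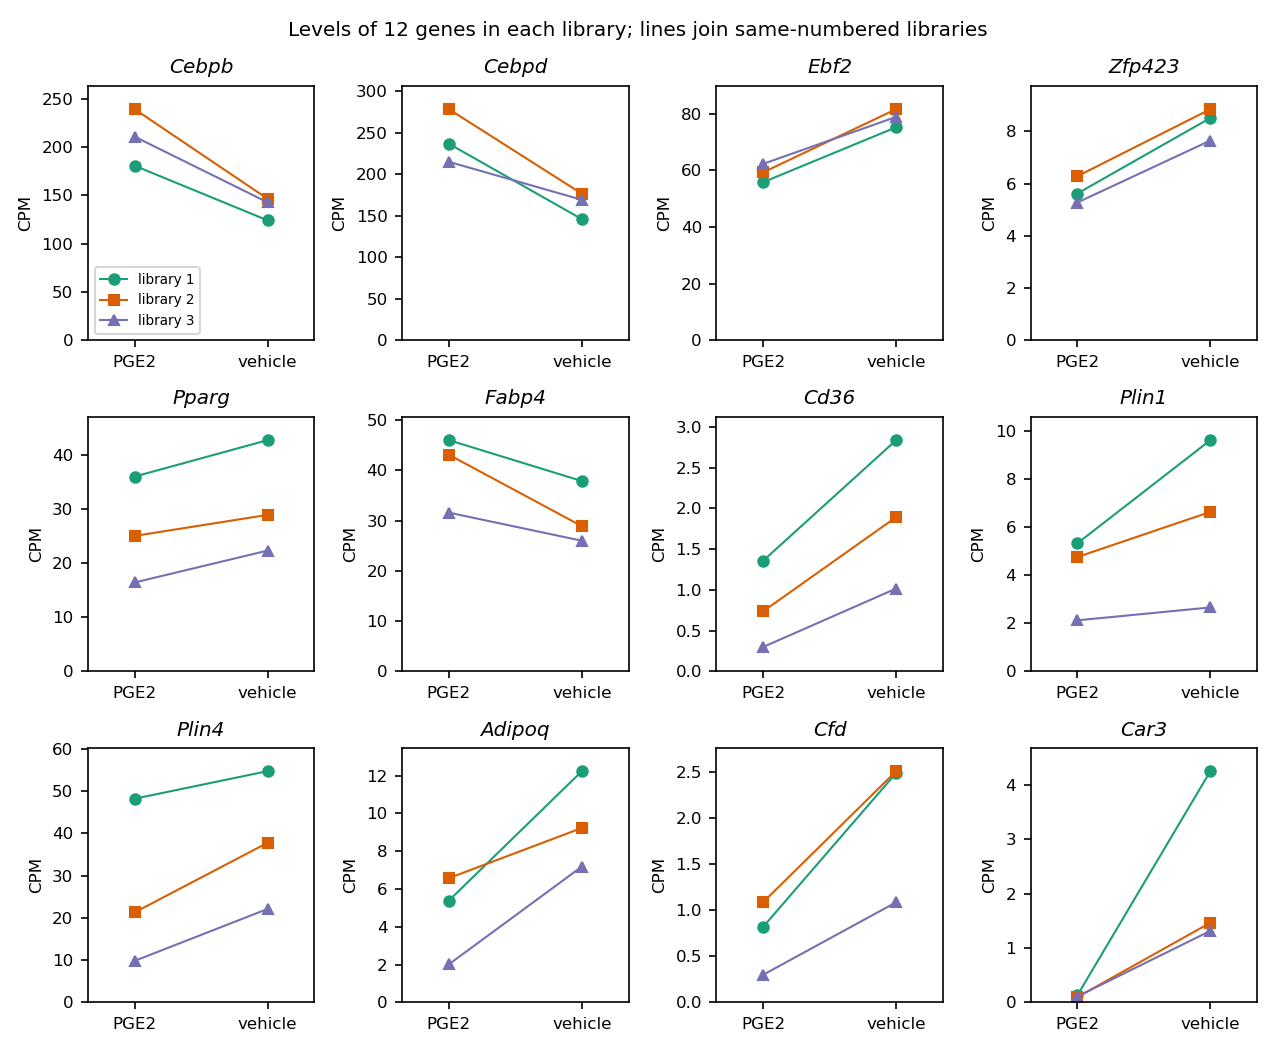
Level in CPM of 12 members in each library, on linear axes that start at 0, with PGE2 left and vehicle right and lines joining libraries of the same number. Cebpb and Cebpd lie higher under PGE2 in every pair, while Car3 lies between 0.0969 and 0.129 CPM under PGE2 and between 1.32 and 4.26 CPM under vehicle.

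Among the early regulators, the C/EBP genes and the commitment factors moved in opposite directions. Cebpb, which encodes C/EBP-beta (mm10 chromosome 2, 167688915 to 167690418), had 181, 239 and 211 CPM in PGE2 libraries and 124, 146 and 143 CPM in vehicle libraries. The groups did not overlap, and its mean was 210.2 ± 29.3 CPM under PGE2 against 138 ± 11.9 CPM under vehicle (SD, n = 3 each). Its log2 fold change was 0.61 ± 0.12 (SE) with an edgeR adjusted p of 0.0929, and it rose in the paired fit (adjusted p = 0.000585). Cebpd, its partner C/EBP-delta, had 237, 278 and 215 CPM under PGE2 and 146, 176 and 169 CPM under vehicle. These groups did not overlap either, with a log2 fold change of 0.57 ± 0.12, and the gene rose in the paired fit (edgeR adjusted p = 0.00223, unblocked 0.0961).

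Zfp423, a zinc finger factor that commits mesenchymal cells to the fat lineage, had 5.62, 6.28 and 5.28 CPM in PGE2 libraries against 8.51, 8.85 and 7.65 CPM in vehicle libraries. Ebf2, a helix-loop-helix factor best known from brown fat precursors, had 55.8, 59.3 and 62.3 CPM under PGE2 and 75.2, 81.6 and 78.9 CPM under vehicle. Neither gene's groups overlapped, and both fell in the paired fit, by 0.54 ± 0.11 and by 0.41 ± 0.07 on the log2 scale (edgeR adjusted p = 0.0127 and 0.00512, unblocked 0.113 and 0.0728). Ebf1, a relative of Ebf2, had 101, 111 and 114 CPM under PGE2 and 127, 171 and 129 CPM under vehicle. It fell in the paired fit (log2 fold change -0.37 ± 0.09, edgeR adjusted p = 0.0203) but not without pair 2 (adjusted p = 0.217). Klf4, an early activator of Cebpb, had 65.2 ± 6.76 CPM under PGE2 and 74.3 ± 5.92 CPM under vehicle and did not pass in either fit. Klf5, which acts with the C/EBP factors on Pparg, had 1.28 to 1.94 CPM under PGE2 and 1.51 to 2.49 CPM under vehicle and did not pass. Thus 2 of the 7 early regulators rose and 3 fell in the paired fit, which called 6.91% of all genes higher and 7.51% lower. None passed unblocked with edgeR, although 5 had an unadjusted p under 0.05, a count with no share of all genes beside it. DESeq2 called 4, where it called 6.14% of all genes, and limma-voom called 0.

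Pparg, the core regulator of adipocytes (chromosome 6, 115360951 to 115490399), had 36.0, 25.0 and 16.4 CPM in PGE2 libraries and 42.7, 28.9 and 22.3 CPM in vehicle libraries. Library 1 was highest and library 3 lowest in both groups, so the groups overlapped while the PGE2 library was lower in each pair. The log2 fold change was -0.28 ± 0.34 unblocked (edgeR adjusted p = 0.685) and -0.30 ± 0.08 in the paired fit (adjusted p = 0.0394), which Pparg did not pass without pair 1 (0.122) or pair 2 (0.0828). Without vehicle library 1 the unblocked value was 0.01. Cebpa, which maintains the adipocyte state together with Pparg, averaged 166 ± 17.8 CPM under PGE2 and 185 ± 27.1 CPM under vehicle. It did not pass in either fit, and passed once the length correction described below was added to the paired fit (-0.20 ± 0.07, edgeR adjusted p = 0.0481). When that correction used the length of principal transcripts, Cebpa did not pass (edgeR adjusted p = 0.0704).

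Klf15, a Kruppel-like factor of late adipogenesis, averaged 12.2 CPM under PGE2 and 10.7 CPM under vehicle. Srebf1, the factor that drives fatty acid synthesis genes, averaged 144 ± 2.95 CPM under PGE2 and 147 ± 4.73 CPM under vehicle. Ppargc1a, a coactivator of mitochondrial genes that cyclic AMP is known to induce in brown fat, averaged 1.39 CPM under PGE2 and 1.59 CPM under vehicle. None of these 3 genes passed in either fit.

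Genes of fatty acid uptake and binding did not move together. Lpl, the lipoprotein lipase that frees fatty acids for uptake, had 1294, 2001 and 1945 CPM in PGE2 libraries against 1153, 1771 and 1493 CPM in vehicle libraries. Per kilobase of its principal transcript this was the highest level of any member, 424 CPM per kb under PGE2 and 358 CPM per kb under vehicle. Lpl did not pass in either fit (log2 fold change 0.25 ± 0.21, edgeR adjusted p = 0.554, paired 0.103). With the length correction added, the paired fit called it higher (0.28 ± 0.07, adjusted p = 0.0142).

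Cd36, the fatty acid translocase, had 1.36, 0.737 and 0.299 CPM under PGE2 and 2.84, 1.89 and 1.02 CPM under vehicle. Library 1 was highest and library 3 lowest in each group, the groups overlapped, and within pairs the log2 ratio of PGE2 to vehicle was -1.01, -1.25 and -1.48. Cd36 fell in the paired fit (log2 fold change -1.31 ± 0.24, edgeR adjusted p = 0.00625, unblocked 0.274). Fabp4, the fatty acid binding protein of adipocytes, had 46.0, 43.1 and 31.6 CPM under PGE2 and 37.8, 28.9 and 26.0 CPM under vehicle. It was the late gene that rose in the paired fit (0.38 ± 0.09, edgeR adjusted p = 0.0182, unblocked 0.301), and it did not pass without pair 2 (0.18). Fabp5, which has a sequence related to Fabp4, averaged 72.7 ± 7.85 CPM under PGE2 and 63.2 ± 8.49 CPM under vehicle and did not pass in either fit. How reads shared by these related genes were counted is not given in the sources used here.

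Of 18 further genes of fatty acid handling, 16 were tested, and 4 rose and 2 fell in the paired fit. That fit called 6.91% of all genes higher and 7.51% lower. Angptl4, the secreted inhibitor of lipoprotein lipase, had 87.3, 131 and 139.8 CPM in PGE2 libraries and 44.9, 58.9 and 73.4 CPM in vehicle libraries. Every PGE2 library lay above every vehicle library, and the log2 ratio was 0.96, 1.15 and 0.93 in pairs 1 to 3 (edgeR adjusted p = 5.89e-05 in the paired fit, 0.119 unblocked). Cpt1a, which admits fatty acids to mitochondria for oxidation, rose by 0.38 ± 0.07 on the log2 scale in that fit. Acsl4, an acyl-CoA synthetase, rose by 0.46 ± 0.09 and Lmf1, a maturation factor of lipoprotein lipase, rose by 0.34 ± 0.08 in the paired fit. The 2 that fell, Acacb (-0.69) and Elovl6 (-0.23), were named after their values were seen, and neither passed with the length correction.

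The adipocyte perilipins Plin1 and Plin4 were lower under PGE2 in each pair. Plin1, the perilipin that guards the adipocyte droplet, had 5.32, 4.75 and 2.12 CPM in PGE2 libraries and 9.60, 6.63 and 2.66 CPM in vehicle libraries. Plin4, another adipocyte perilipin, had 48.2, 21.3 and 9.82 CPM under PGE2 and 54.7, 37.8 and 22.1 CPM under vehicle. For both genes library 1 was highest and library 3 lowest in each group, and the groups overlapped. Both fell in the paired fit, Plin1 by 0.58 ± 0.15 and Plin4 by 0.70 ± 0.18 on the log2 scale (edgeR adjusted p = 0.0259 and 0.049, unblocked 0.548 and 0.655). Plin1 did not pass without pair 1 (0.234), and Plin4 not without pair 3 (0.281) or with the length correction (0.374). Plin2, the coat protein of droplets in most cell types, averaged 187 ± 39.5 CPM under PGE2 and 203 ± 16.4 CPM under vehicle and passed in neither fit. Cidec, which fuses droplets in fat cells, had 9, 8 and 0 counts in PGE2 libraries and 20, 3 and 9 counts in vehicle libraries.

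Of the genes of triglyceride synthesis and breakdown, Dgat1 rose in the paired fit. Dgat1, which makes triglyceride in the last step of its synthesis, had 28.7, 36.7 and 35.8 CPM in PGE2 libraries and 23.5, 25.7 and 25.5 CPM in vehicle libraries. The groups did not overlap, and the log2 fold change was 0.44 ± 0.11 unblocked (edgeR adjusted p = 0.119) and 0.43 ± 0.08 in the paired fit (0.00857). Its isoenzyme Dgat2, encoded by an unrelated gene, averaged 10.4 CPM under PGE2 and 9.85 CPM under vehicle. The lipases Pnpla2 and Lipe, which begin triglyceride breakdown, averaged 22.0 and 10.4 CPM under PGE2 and 21.3 and 9.90 CPM under vehicle. Dgat2, Pnpla2 and Lipe passed in neither fit. Gpd1, which supplies glycerol phosphate, had 0.56, 0.795 and 0.49 CPM under PGE2 and 1.53, 0.852 and 0.832 CPM under vehicle. Its groups did not overlap, yet it passed in neither fit (log2 fold change -0.81 ± 0.34, edgeR adjusted p = 0.247, paired 0.102), and pair 2 showed a log2 ratio of -0.09.

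Of 19 further droplet and triglyceride genes, 16 were tested, and Hilpda rose and Lpin1 fell in the paired fit, a share near the 14.4% of all genes. Lpin1, a phosphatidate phosphatase of triglyceride synthesis, averaged 48.6 ± 3.54 CPM under PGE2 and 67.5 ± 4.51 CPM under vehicle (log2 fold change -0.47 ± 0.08, edgeR adjusted p = 0.0747, paired 0.00284). Hilpda, an inhibitor of the lipase encoded by Pnpla2, averaged 12.7 CPM under PGE2 and 9.72 CPM under vehicle and did not pass with the length correction (adjusted p = 0.135, paired 0.039). Gpat3 and Lpin2, next in the order of adjusted p, had paired log2 fold changes of -0.50 and -0.22 and did not pass. With the length correction Gpat3 passed (-0.52, adjusted p = 0.0342), and 1 gene rose and 2 fell.

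Fatty acid synthesis genes with long transcripts were lower under PGE2. Fasn, the fatty acid synthase, had 331, 300.5 and 276 CPM in PGE2 libraries and 411, 418 and 341 CPM in vehicle libraries. Acaca, the acetyl-CoA carboxylase that feeds it, had 74.8, 76.2 and 87.9 CPM under PGE2 and 112, 113 and 90.4 CPM under vehicle. Neither gene's groups overlapped, although in pair 3 the Acaca log2 ratio was -0.04. Both fell in the paired fit, Fasn by 0.36 ± 0.08 and Acaca by 0.40 ± 0.11 on the log2 scale (edgeR adjusted p = 0.0128 and 0.0348, unblocked 0.154 and 0.136). Acly, which makes acetyl-CoA for the pathway, averaged 649 ± 45.0 CPM under PGE2 and 682 ± 76.9 CPM under vehicle. Scd1, the desaturase that makes monounsaturated fatty acids, averaged 845 ± 112 CPM under PGE2 and 747 ± 98.3 CPM under vehicle, and neither of them passed. Per kilobase, Scd1 stood at 175 CPM per kb under PGE2 and 155 CPM per kb under vehicle, next below Lpl under PGE2.

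Transcript length moved with these values. The longest transcript was 10050 bases for Fasn and 9513 for Acaca, and 813 tested genes had one of at least 8 kb. Of these, 83.4% were below 0 in the paired fit, with a median log2 fold change of -0.25. A correction fitted a trend on length in each library, after which the long genes had a median of -0.02. Fasn was then at -0.13 ± 0.07 and Acaca at -0.17 ± 0.06, and neither passed (edgeR adjusted p = 0.207 and 0.071, paired fit with length correction). That fit called 17 members, 6 higher and 11 lower, of which 13 were called in the same direction without the correction, where it called 16.8% of all genes, 8.82% higher and 7.97% lower. Acaca, Agt, Fasn and Plin4 no longer passed, and Cebpa, Lpl, Plin2 and Scd1 did. The longest annotated transcript of Fabp4 has 4231 bases and its principal one 896, and on principal lengths Fabp4 did not pass (0.20, adjusted p = 0.0796). Nor did Cebpa on principal lengths (-0.18, edgeR adjusted p = 0.0704).

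**Figure D2:**
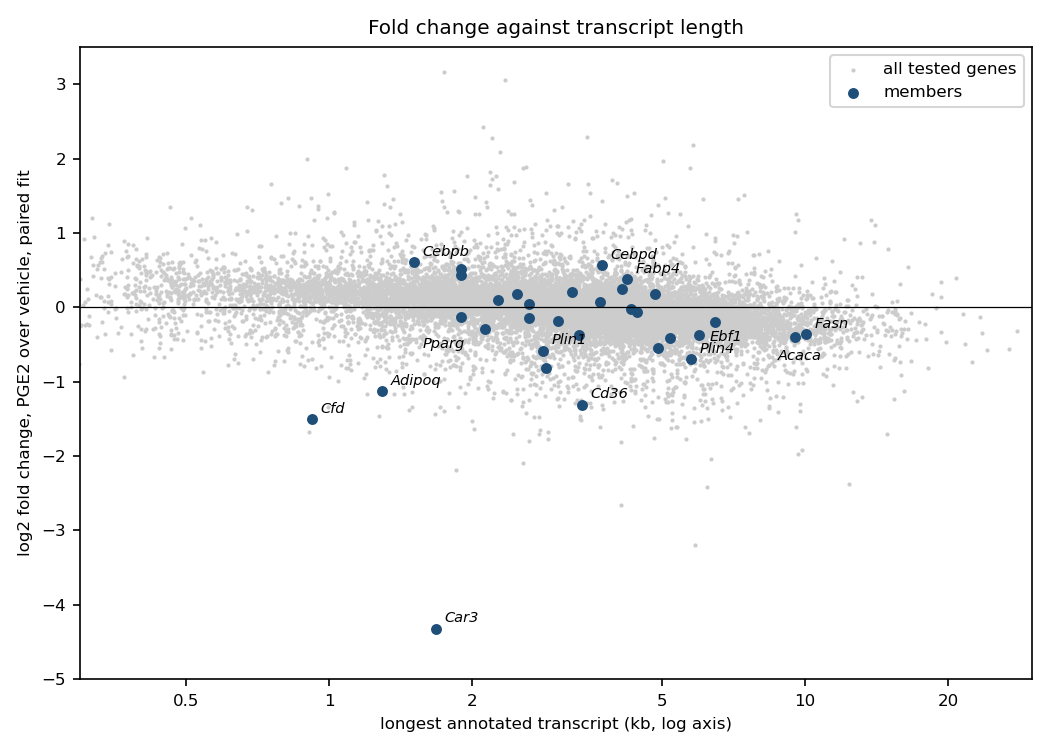
Log2 fold change of PGE2 over vehicle in the paired fit against the longest annotated transcript in kb on a log axis, for all tested genes in grey and the tested members in blue. Fasn and Acaca lie among long transcripts, which are mostly below 0, whereas Cfd, Adipoq and Car3 lie below 0 among short transcripts.

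Adipoq and Cfd, whose products adipocytes secrete, were detected at low levels and fell under PGE2 in the paired fit. Adipoq, which encodes adiponectin (chromosome 16, 23146536 to 23158028), had 5.38, 6.57 and 2.01 CPM in PGE2 libraries and 12.2, 9.23 and 7.19 CPM in vehicle libraries. Every PGE2 library lay below every vehicle library, with a log2 fold change of -1.03 ± 0.43 unblocked (edgeR adjusted p = 0.247) and -1.12 ± 0.22 in the paired fit, where Adipoq fell (0.0132). Cfd, the complement factor adipsin (chromosome 10, 79890853 to 79892655), had 0.818, 1.09 and 0.299 CPM under PGE2 and 2.49, 2.51 and 1.09 CPM under vehicle. PGE2 library 2 stood just below vehicle library 3, and the gene fell in the paired fit (-1.50 ± 0.24, edgeR adjusted p = 0.00296, unblocked 0.19). Per kilobase, Adipoq stood at 3.60 CPM per kb under PGE2 and 7.39 CPM per kb under vehicle, against 188 CPM per kb for Pdgfra in each group.

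Agt, the angiotensinogen gene, went the other way, at 31.4, 41.7 and 37.3 CPM in PGE2 libraries and 28.1, 26.5 and 22.5 CPM in vehicle libraries. The groups did not overlap and Agt rose in the paired fit (log2 fold change 0.51 ± 0.11, edgeR adjusted p = 0.0143, unblocked 0.119), but did not pass with the length correction (0.106). Retn, which encodes resistin, had at most 5 counts in any library. For Retn and Lep no difference was detectable at this depth, at which 3 counts corresponded to 0.0569 to 0.0786 CPM in PGE2 libraries and 0.0702 to 0.143 CPM in vehicle libraries.

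Car3, carbonic anhydrase III, an enzyme abundant in fat cells and in slow muscle fibres, had the largest fold change among the tested members. The gene lies on chromosome 3, 14863512 to 14872523. It had 6, 5 and 4 counts in PGE2 libraries and 183, 31 and 57 counts in vehicle libraries. On the CPM scale this was 0.129, 0.0969 and 0.109 under PGE2 against 4.26, 1.47 and 1.32 under vehicle, so each PGE2 library was far below every vehicle library. The log2 fold change was -4.38 ± 0.60 with an edgeR adjusted p of 0.0416, and -4.32 ± 0.35 in the paired fit (7e-05). Car3 passed the filter on low counts through the vehicle libraries, and the size of its fold change rests on 4 to 6 counts in each PGE2 library. Unblocked, it stayed past the threshold without vehicle library 1 (-3.61, adjusted p = 0.0292) but not with any other library left out (adjusted p between 0.0501 and 0.307). Without vehicle library 1, whose Car3 level was the highest, the fold change was the smallest of the leave-out fits.

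**Figure D3:**
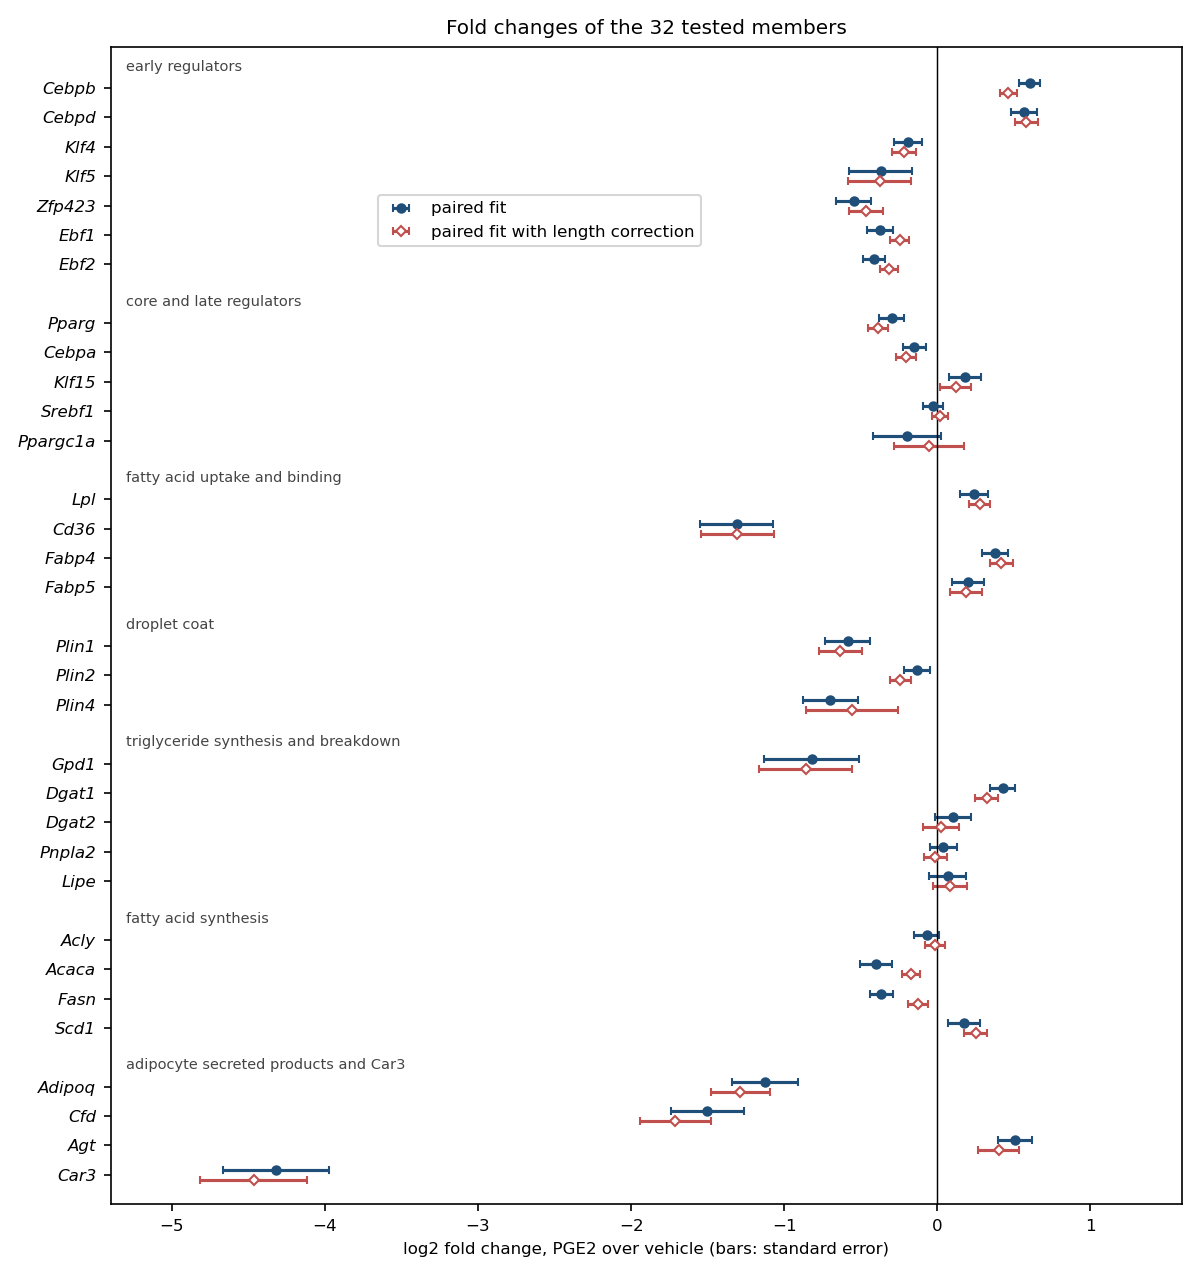
Log2 fold change of PGE2 over vehicle for the 32 tested members by role, with standard errors, in the paired fit (filled circles) and the paired fit with length correction (open diamonds). Cebpb and Cebpd lie right of 0 and Zfp423, Ebf1 and Ebf2 left of it, and Car3 lies furthest left at -4.32.

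The early regulators were set against 13 late adipocyte genes, namely Fabp4, Cd36, Plin1, Plin4, Cidec, Gpd1, Dgat2, Lipe, Adipoq, Cfd, Lep, Retn and Car3. That list was chosen with earlier results of these data known, and the late median depends on it. Lipid and secreted product genes left out were, with paired log2 fold changes, Agt (0.51), Dgat1 (0.43), Lpl (0.24), Fabp5 (0.20), Scd1 (0.18) and Pnpla2 (0.04). Also left out were Acly (-0.07), Plin2 (-0.13), Fasn (-0.36) and Acaca (-0.40). Of the 10 late genes tested, 1 rose (Fabp4), 6 fell and 3 did not pass in the paired fit, while Car3 passed unblocked. DESeq2 without the block also called 1 late gene, Car3, where it called 6.14% of all genes. The paired fit called 14.4% of all genes, 6.91% higher and 7.51% lower. The median log2 fold change was -0.37 for the early regulators and -0.76 for the tested late genes in the paired fit, so early regulators as a whole did not rise. Within pairs the early median was -0.33, -0.23 and -0.34, and the late median was -0.93, -0.48 and -0.91. The early median was thus 0.60, 0.25 and 0.57 higher than the late one in pairs 1 to 3. Unblocked the difference was 0.34, and without vehicle library 1 it was 0.05. With any other single library left out it lay between 0.25 and 0.66. The paired difference of 0.39 was 0.33 without pair 1, 0.65 without pair 2 and 0.55 without pair 3. These lists are part of the chosen members, so the difference is a description and has no test.

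**Figure D4:**
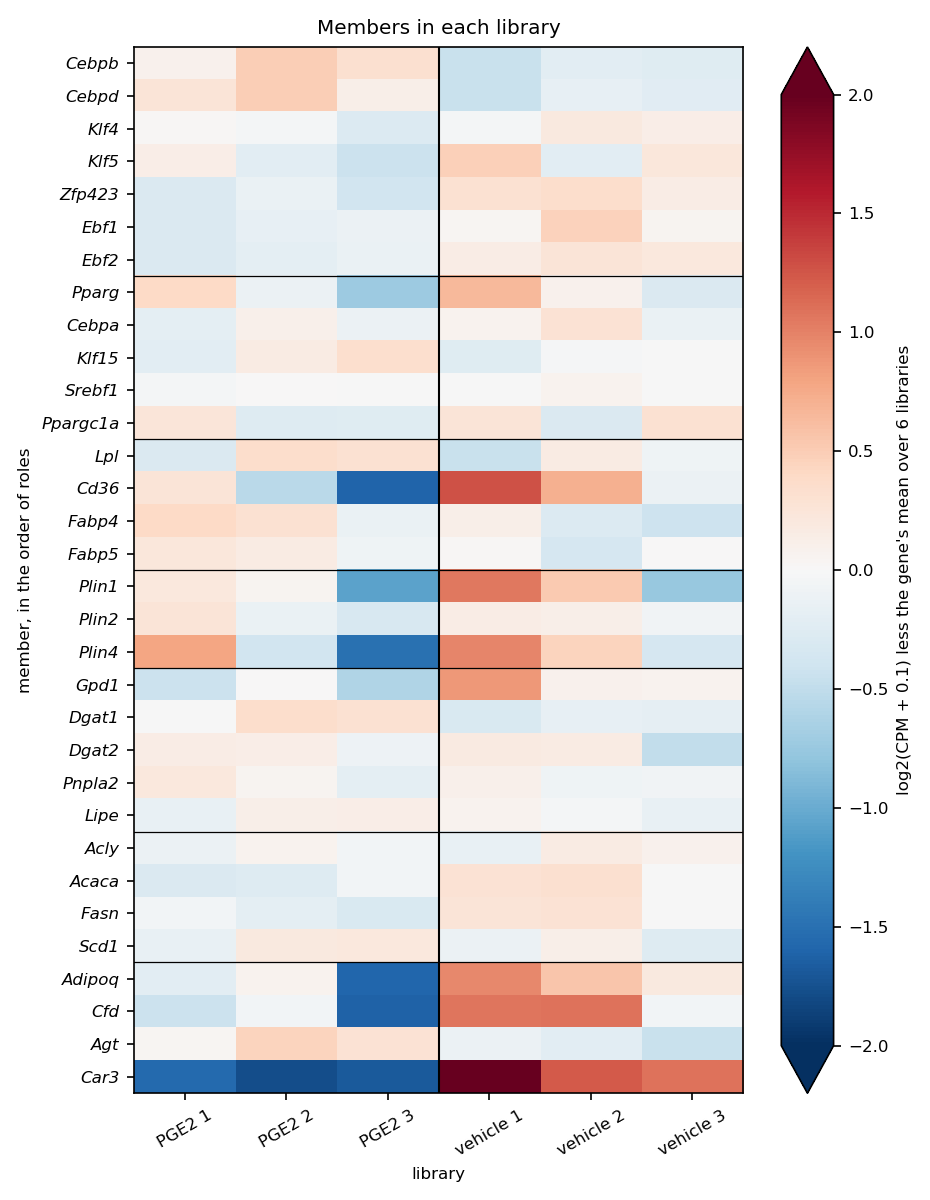
Each tested member's log2(CPM + 0.1) in each library less its mean over the 6 libraries, PGE2 left and vehicle right, with lines between roles and colours that end at 2 in either direction. Cd36, Plin1 and Plin4 are high in library 1 and low in library 3 of both groups, whereas Cebpb and Cebpd divide by treatment.

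Library 1 was the highest of each group in the summed level both of late adipocyte genes and of muscle cell markers. This did not hold for each late gene. Adipoq, Cfd and Gpd1 were highest in library 2 under PGE2, and Cfd was so under vehicle too. Lipe was lowest in library 1 under PGE2 (9.17, 11.0 and 11.1 CPM in libraries 1 to 3). The summed level of the 13 late genes was 128, 101 and 67.1 CPM in PGE2 libraries and 148, 111 and 78.6 CPM in vehicle libraries. Plin4 and Fabp4 made up most of it in PGE2 library 1, at 48.2 and 46.0 CPM. Summed over 10 myogenic markers, the level was 161, 24.4 and 24.1 CPM under PGE2 and 236, 76.5 and 51.8 CPM under vehicle. Of the 8 myogenic markers tested, 6 fell in the paired fit, among them Myod1 (-1.35), Myog (-1.34), Mymk (-0.86) and Acta1 (-0.56), and 3 fell with the length correction. The paired fit called 7.51% of all genes lower, and 7.97% with the length correction. The stem cell marker Pax7 had at most 0.0698 CPM in any library. The part of muscle cells in the members' values was not tested.

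Markers of 4 other cell types were also detected. For comparison, the paired fit called 6.91% of all genes higher and 7.51% lower, and with the length correction 8.82% and 7.97%. Summed levels of 8 macrophage markers were 12.6 to 13.2 CPM under PGE2 and 9.84 to 10.7 CPM under vehicle, and 2 of 4 tested, Cd14 and Csf1r, rose in the paired fit, and 1 with the length correction. The 7 endothelial markers summed to 19.3 to 33.7 CPM under PGE2 and 21.6 to 47.5 CPM under vehicle, with Cldn5 at 0 and 1 of 5 tested lower. The 7 pericyte and smooth muscle markers summed to 58.0 to 87.8 CPM under PGE2 and 73.8 to 122 CPM under vehicle, with 3 of 7 lower, and 1 with the length correction. The 5 Schwann cell markers summed to 4.24 to 5.10 CPM under PGE2 and 6.91 to 8.09 CPM under vehicle, with Sox10 at 0 and 2 of 3 tested lower. Of 14 progenitor markers 4 rose and 5 fell in the paired fit, with Thy1 (0.73) and Ly6a (0.62) higher and Col15a1 (-0.97) and Cd34 (-0.59) lower, and 6 rose and 4 fell with the length correction. The part of these cell types in the members' values was not tested.

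Of 14 known inhibitors of fat cell formation, all tested, 1 rose and 7 fell in the paired fit, and 1 rose and 5 fell with the length correction. The paired fit called 6.91% of all genes higher and 7.51% lower, and with the length correction 8.82% and 7.97%. Dlk1, the membrane protein that keeps preadipocytes immature, had 78.6, 128 and 114 CPM in PGE2 libraries and 122, 243 and 300.4 CPM in vehicle libraries. The groups overlapped, the log2 ratio was -0.63, -0.92 and -1.40 in pairs 1 to 3, and the gene fell in the paired fit (edgeR adjusted p = 0.00271, unblocked 0.179, 0.124 paired with length correction). Nr2f2, an orphan nuclear receptor that restrains Pparg, fell by 0.46 ± 0.09, the cartilage factor Sox9 by 0.45 ± 0.08 and the Zfp423 antagonist Zfp521 by 0.37 ± 0.08 on the log2 scale in that fit. Klf2, a repressor of Pparg, was the 1 that rose (0.46 ± 0.10) and was named after its value was seen.

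Of 14 other factors that promote fat cell formation, 2 fell and none rose in the paired fit, which called 14.4% of all genes, so the share called was near that of all genes. Nr3c1, the glucocorticoid receptor through which dexamethasone induces adipogenesis, had 82.9, 84.2 and 89.3 CPM in PGE2 libraries and 134, 140.3 and 112 CPM in vehicle libraries. The groups did not overlap, and the log2 fold change was -0.59 ± 0.10 (edgeR adjusted p = 0.0614, paired 0.00231). Rxra, the partner with which PPAR-gamma binds DNA, averaged 109 ± 3.76 CPM under PGE2 and 132 ± 12.1 CPM under vehicle and fell by 0.27 ± 0.08 in the paired fit (adjusted p = 0.039). Klf9 (0.22) and Egr2 (-0.25) were next and did not pass. With the length correction Klf9 was higher (0.28, adjusted p = 0.00885) and Egr2 lower (-0.28, 0.0391), so that 1 rose and 3 fell, and on principal lengths Egr2 did not pass (0.0595). The lists of factors, lipid genes, hormone response and cell types held 109 tested genes outside the members. In the unblocked edgeR fit 0 of these passed, and 37 had an unadjusted p under 0.05. DESeq2 called 20, where it called 6.14% of all genes, and limma-voom called 0. The share of all genes at that unadjusted threshold is not given here, so the 37 are a description.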

How the data were processed

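Polyadenylated RNA was sequenced in 6 libraries as paired ends. Per the labels' protocols the reads were made on a NovaSeq instrument, and mm10 is the build that the submitters' processing notes name. The authors deposited whole-number counts per gene. Nothing used here names the aligner, counter, strand setting or annotation release, so related, overlapping or antisense genes are uncertain.

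Counts were filtered by filterByExpr, scaled by trimmed mean of M values and tested two-sided with the robust quasi-likelihood test of edgeR version 4.0.16 in R version 4.3.3, PGE2 over vehicle, with Benjamini-Hochberg adjustment over all 15186 tested genes and a threshold of 0.05. Standard errors were taken from the fold change and its F statistic. No 2 libraries of a group agreed within sampling noise (chi-square per degree of freedom at least 20.7).

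Labels number libraries 1 to 3 in both groups. Deviations of log2 CPM (prior count 2) from group means correlated at 0.621, 0.169 and 0.422 for the same numbers. Each was over 0.1, so the numbers were treated as pairs, a choice that rests on these values, since the labels name no shared animal or day. A matching that swaps numbers 2 and 3 (0.252 and 0.145) would also pass.

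The length correction added a lowess trend (span 0.3) on the longest transcript of GENCODE M21 (GRCm38) to the offset, a length being known for 99.4% of tested genes. The use of principal transcripts was chosen after seeing the data. CPM per kb uses the principal transcript. Ratios within pairs use CPM plus 0.1. All 35 members are named, and of other lists at most the 4 genes with the smallest adjusted p in the paired fit, with exceptions stated. Members and lists were chosen with earlier results of these data known. DESeq2 version 1.42.0 and limma-voom (limma version 3.58.1), other scalings and filters, and libraries or pairs left out were alternatives.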

Additional observations from a re-analysis of the deposited data

How the results depend on the processing

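Over all genes the unblocked edgeR test called 52 (32 higher, 20 lower). DESeq2 called 932, limma-voom 13, a fit with no filter 285, the length correction 15, and the principal transcript length, chosen after seeing the data, 19. Library totals called 65, with 31 higher and 34 lower. Leaving out 1 library called between 0 and 120: edgeR called 0 without vehicle library 2 or 3 or PGE2 library 2 or 3 (1871, 3697, 1494 and 2597 genes at an unadjusted p under 0.05), 30 without vehicle library 1 and 120 without PGE2 library 1. With the replicate block 2189 genes were called, 2549 with length correction and 2491 on principal lengths, and 1372, 1160 and 5097 without pair 1, 2 and 3.

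Of the members, 1 was called unblocked (13 at an unadjusted p under 0.05). Member counts at that unadjusted threshold are given without the share of all genes, so they are a description. DESeq2 called 9, no filter 4 and library totals 2. The length correction called 0 (11 at an unadjusted p under 0.05), as did its principal version (11), limma-voom (12) and a mean of at least 1 CPM (12), and leaving out 1 library called between 0 and 2. The replicate block called 17, also 17 with length correction and 15 on principal lengths, and 14, 13 and 18 without pair 1, 2 and 3. The difference between the early and late medians, 0.34, lay between 0.0517 and 0.663 with 1 library left out, and in the replicate block was 0.388 with all pairs, 0.335 without pair 1, 0.646 without pair 2 and 0.552 without pair 3.

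Of 639 values of single members under alternatives, 511 kept their direction and side of the threshold, 102 newly passed, 9 no longer passed and 17, of 7 members, turned direction, none past the test. Gpd1, to which DESeq2 gave no adjusted p, was counted there by direction. With 1 library left out, Dgat2 lay between -0.114 and 0.198, Plin2 between -0.296 and 0.00572, Pnpla2 between -0.0472 and 0.151 and Pparg between -0.593 and 0.0133. Other turned values without the block were Acly 0.000355 on principal lengths, Pnpla2 -0.0068 with length correction and -0.0517 on principal lengths, and Srebf1 0.018 and 0.0401 with those 2 corrections. With the block, Dgat2 was at -0.0431 and Lipe at -0.0479 without pair 3, and Pnpla2 at -0.00672 without pair 2. With the block and length correction, Pnpla2 was at -0.013 and Srebf1 at 0.0181, and on principal lengths Acly was at 0.00491, Pnpla2 at -0.0565 and Srebf1 at 0.0401. The cause was not tested. Depth limits Cidec, Lep and Retn, and intervals for them would cover counting error only.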

Other observations

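Of 12 genes of the adipocyte's response to insulin and other hormones, 8 were tested, and 1 fell and none rose in the paired fit, a share near the 14.4% of all genes called there, while 1 rose and 1 fell with the length correction. Irs1, the insulin receptor substrate that passes the adipogenic insulin signal into the cell, had 27.1, 21.6 and 24.5 CPM in PGE2 libraries and 52.7, 50.1 and 33.2 CPM in vehicle libraries. The groups did not overlap, and the log2 fold change was -0.87 ± 0.13 (edgeR adjusted p = 0.00438, unblocked 0.0962), or -0.65 with the length correction (0.000124), its longest transcript having 9144 bases. Adipor1, a receptor for adiponectin, was higher in every PGE2 library (paired log2 fold change 0.18) and did not pass in the paired fit (adjusted p = 0.0912) but did with the length correction (0.0303). Pck1 and Ucp1, marks of mature white and brown fat cells, had at most 0.151 CPM in PGE2 libraries and 0.0233 CPM in vehicle libraries.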
